A study of Homo sapiens with 18 samples.

Results

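The E2F and DP transcription factors were followed at the RNA level in T47D cells, a luminal, estrogen receptor positive breast cancer line. The group was taken as the 8 E2F genes, E2F1 to E2F8, and the 2 DP genes TFDP1 and TFDP2, by gene symbol. These are 10 of the 58884 genes counted in each library, and all 10 were found and tested in every comparison. The study compared 2 inhibitors of the DNA repair enzyme PARP1, niraparib and olaparib, with the solvent DMSO, and poly(A) RNA was sequenced from 18 libraries in 6 groups of 3. WT cells, from the line labelled T47D AAV, received DMSO, niraparib at 10 μmol/L or olaparib at 10 μmol/L for 48 hours. PARP1 knockout (KO) cells, from the line labelled T47D JL, received the same 3 treatments at the same doses and time. Only 1 line stood for each genotype, so a difference between genotypes cannot be told apart from any other difference between these lines. The study's methods describe 3 culture dishes per condition for its omics treatments, but the labels do not tie a library to a dish. P values therefore measure the spread between libraries of 1 line, which at most is the spread between dishes.

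E2F proteins bind promoters of genes needed for DNA replication and cell division, mostly as pairs with a DP protein, TFDP1 or TFDP2. E2F1, E2F2 and E2F3 are known mainly as activators and are held inactive by the retinoblastoma protein RB1 until cyclin-dependent kinases phosphorylate it late in G1. E2F4 and E2F5 act mainly as repressors with the RB1 relatives RBL1 and RBL2, E2F6 represses with a polycomb complex and without RB1, and the atypical E2F7 and E2F8 bind DNA without a DP partner and damp E2F target genes. Several family members are themselves E2F targets, so their RNA is commonly used as a readout of passage from G1 into S phase.

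To show which of these genes carry an E2F binding motif next to their own start site, promoter windows running from 250 bases before to 50 bases after the start were searched for the E2F consensus, written as TTTCCCGC, TTTCGCGC, TTTGCCGC or TTTGGCGC, and for the CHR element, TTTGAA, which is found in many genes of G2 and mitosis. Both motifs were searched on both strands. Windows from RefSeq on GRCh38.p14 were matched for 8 of the 10 members, with 11 windows in all. E2F5 and E2F8 were not among these 8, so the motif counts for the members say nothing about them. An E2F consensus was held by 4 of the 11 windows, against 3.31% of all 35116 windows. Among the windows of a list of S-phase E2F target genes described further on, 39% held the E2F consensus. The CHR element was in 3 of the 11 member windows, against 15.2% of all windows and 59% of those of a list of G2 and mitosis genes. The 150 bases before the start are printed 5′ to 3′ for E2F1, E2F2 and E2F7, the members called with niraparib in WT cells, and for E2F3, the activator that did not pass the test. Capitals mark the motif matches.
E2F1 (chr20:33686386-33686535, minus strand): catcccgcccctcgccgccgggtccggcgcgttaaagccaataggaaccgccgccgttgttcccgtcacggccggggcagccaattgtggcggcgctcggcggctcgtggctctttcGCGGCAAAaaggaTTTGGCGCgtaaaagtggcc
E2F2 (chr1:23531234-23531383, minus strand): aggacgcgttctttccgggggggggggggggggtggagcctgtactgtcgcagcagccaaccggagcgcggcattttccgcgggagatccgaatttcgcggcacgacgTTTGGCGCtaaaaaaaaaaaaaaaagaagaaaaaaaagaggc
E2F3 (chr6:20401729-20401878, plus strand): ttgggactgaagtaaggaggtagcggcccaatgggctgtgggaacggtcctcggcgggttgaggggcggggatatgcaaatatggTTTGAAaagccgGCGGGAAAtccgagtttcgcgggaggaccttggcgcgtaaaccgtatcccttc
E2F7 (chr12:77065570-77065719, minus strand): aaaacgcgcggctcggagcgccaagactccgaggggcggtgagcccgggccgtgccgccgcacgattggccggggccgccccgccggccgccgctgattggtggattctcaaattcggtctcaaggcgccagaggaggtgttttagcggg
E2F1 had 2 matches to the E2F consensus, beginning 33 and 20 bases before the start, and E2F2 had 1, beginning 42 bases before it. The first of the 2 windows of E2F3 held a CHR element beginning 65 bases before the start, followed by an E2F consensus at 53 bases. A further E2F consensus lay 120 bases before the start of TFDP1. Neither motif was found in the windows of E2F4, E2F6 or E2F7. These matches describe letters in a window and are not shown binding sites.

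Library totals ran from 28890837 to 52251288 counts, and the mean correlation of a library with the others of its group lay between 0.993 and 0.998 on the log2 scale. PARP1, the deleted gene, stood at 291 to 373 CPM (reads scaled to the library total after TMM normalization) in the 9 WT libraries and at 22.9 to 27.6 CPM in the 9 KO libraries, so every library matched its genotype label. Luminal markers (10 genes, among them ESR1, GATA3 and KRT8) were expressed in all groups, with a summed level of 13528 to 14199 CPM in WT cells with DMSO, 10450.4 to 11283 CPM with niraparib and 10546 to 11015 CPM with olaparib. In KO cells the corresponding ranges were 14843 to 15644.5, 13822.5 to 14409 and 12362 to 13809.5 CPM. A list of 14 markers of other cell types summed to between 129.8 and 221 CPM, mostly from COL1A1 and ACTA2, with WT niraparib at 171 to 221 CPM against 146 to 172 CPM in WT DMSO. Its defining immune, endothelial and basal markers PTPRC, CD3E, PECAM1, KRT5 and KRT14 reached at most 0.185 CPM in any library. What part the shift in luminal markers has in the results that follow was not tested. In bulk RNA, fewer cells in a given state and less of a transcript per cell cannot be told apart.

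All 10 members were expressed, with at least 325 counts per gene in every library. Levels were compared between genes as TPM, in which reads are divided by exon length and scaled to the same total in each library. In WT cells with DMSO the order by mean TPM was TFDP1 at 126, E2F1 at 79.6, E2F4 at 53.3, TFDP2 at 22.4, E2F3 at 20.4, E2F5 at 20.03, E2F7 at 16.2, E2F8 at 13.1, E2F6 at 12.9 and E2F2 at 10.8 (n = 3 each). Neighbours in this order were separated in all libraries, apart from E2F3 with E2F5 and E2F8 with E2F6, whose ranges overlapped. TFDP1, E2F1 and E2F4 kept the first 3 places in all 6 groups, and their ranges did not overlap within any group. Below them the order moved with the treatment. E2F2 was last in WT cells with DMSO and ranked 6 with niraparib, at 24.7 TPM, where its range overlapped that of E2F3. E2F7 ranked 7 with DMSO and 4 with either drug in WT cells, at 29.1 TPM with niraparib and 25.1 TPM with olaparib. With niraparib its range overlapped that of TFDP2, the next gene.

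**Figure D1:**
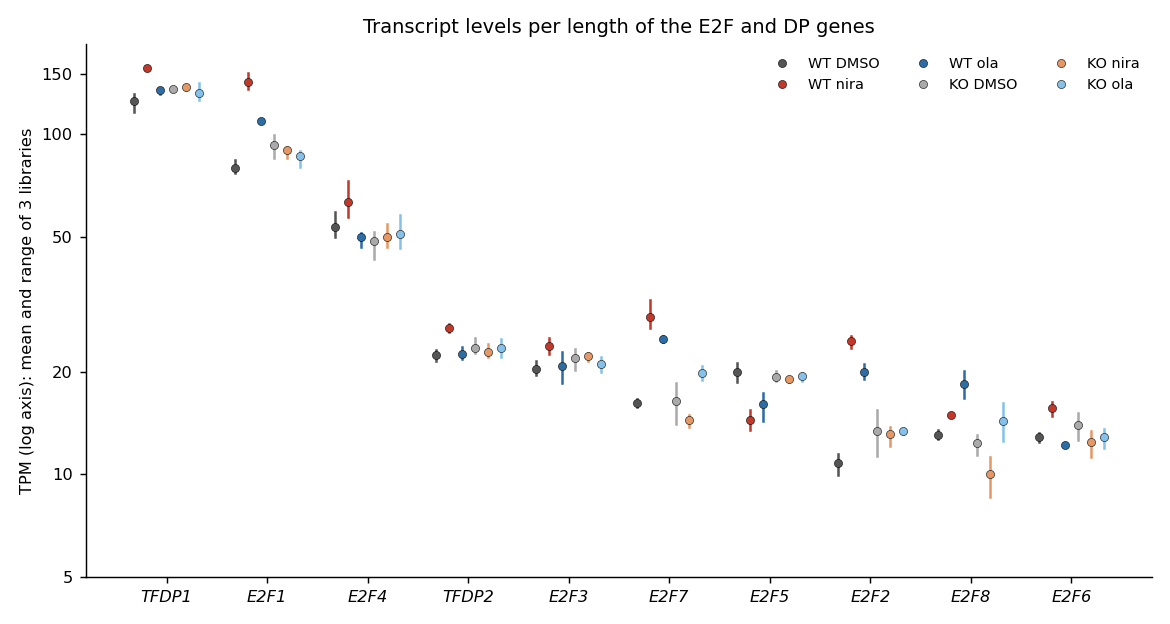
Transcript level per exon length (TPM, log axis) of the 10 E2F and DP genes, ordered by their mean over the 18 libraries, with the mean of each group of 3 libraries as a point and its range as a line. TFDP1, E2F1 and E2F4 lie above the other 7 genes in every group, and the WT niraparib points of E2F1, E2F2 and E2F7 stand apart from those of KO cells.

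Summed by role, the activators E2F1 to E2F3 together stood at 110.8 ± 3.51 TPM (SD, n = 3) in WT cells with DMSO, 190.9 ± 9.93 TPM with niraparib and 150.2 ± 2.80 TPM with olaparib. In KO cells the same sum was 128 ± 10.8, 125 ± 5.29 and 120 ± 5.11 TPM with DMSO, niraparib and olaparib. The activators therefore made up 49.0% of E2F transcripts in WT cells with DMSO, 58.2% with niraparib and 55.3% with olaparib. In the KO groups this share lay between 50.6% and 54.1%. The repressors E2F4 to E2F6 went from 38.1% of E2F transcripts in WT cells with DMSO to 28.4% with niraparib and 28.7% with olaparib, and stood at 34.2% to 35.2% in the KO groups. These shares are given as a description without a test.

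E2F1, the activator that also has apoptosis genes among its known targets, was higher with either drug in WT cells. Its 3 WT libraries with DMSO stood at 55.7, 56.2 and 59.4 CPM, those with niraparib at 92.1, 99.7 and 95.2 CPM, and those with olaparib at 77.7, 79.4 and 79.2 CPM. The 3 groups did not overlap, and niraparib lay highest. In edgeR's quasi-likelihood test, the log2 fold change against DMSO was 0.74 ± 0.049 (SE) with niraparib, 1.67-fold, at a Benjamini-Hochberg adjusted P of 7.05e-11. With olaparib it was 0.47 ± 0.049, 1.38-fold, at an adjusted P of 7.01e-07. A gene was called changed at an adjusted P below 0.05 and more than 1.5-fold, so E2F1 rose with niraparib and stayed under the fold criterion with olaparib.

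E2F2, also an activator and the least expressed member per length in WT cells with DMSO, had the largest fold change of the 10 genes with either drug. Libraries of WT cells with DMSO held 16.2, 14.6 and 16.6 CPM, against 32.4, 34.1 and 34.6 CPM with niraparib and 27.6, 29.0 and 31.3 CPM with olaparib. Every treated library lay above every DMSO library, and the niraparib libraries lay above the olaparib libraries by a narrow margin. E2F2 rose with niraparib by 1.10 ± 0.070 on the log2 scale, 2.14-fold (adjusted P = 3.91e-11), and with olaparib by 0.90 ± 0.070, 1.87-fold (adjusted P = 1.15e-08).

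E2F3, the third activator, did not follow. It stood at 30.1, 27.9 and 26.9 CPM with DMSO, 29.6, 32.1 and 30.9 CPM with niraparib and 29.2, 31.7 and 26.2 CPM with olaparib in WT cells. The 3 groups overlapped. The log2 fold changes were 0.13 with niraparib (95% confidence interval -0.018 to 0.27, adjusted P = 0.17) and 0.042 with olaparib (-0.10 to 0.19, adjusted P = 0.74). Over all 18 libraries its highest CPM was only 1.23 times its lowest, against 1.79 for E2F1 and 2.38 for E2F2.

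**Figure D2:**
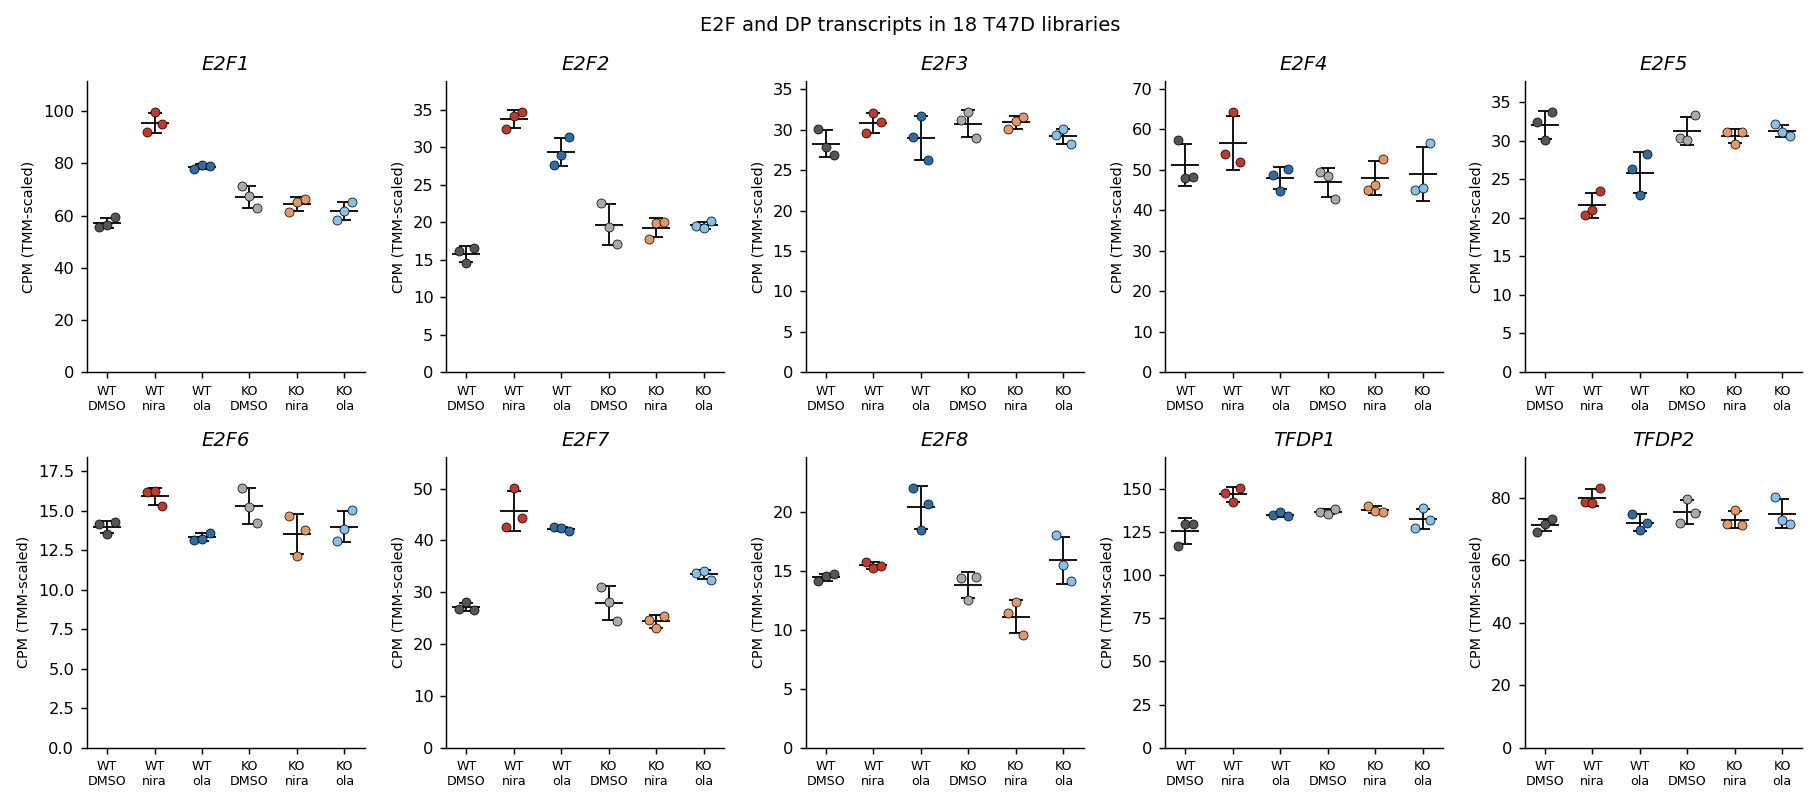
Level of each E2F and DP gene (CPM, axes from 0) in the 18 libraries by genotype and treatment, with points for libraries and bars for the mean ± SD of 3. E2F1, E2F2 and E2F7 are higher in the WT drug groups than in WT DMSO, E2F5 is lower there, and the 3 KO groups lie close together for most genes.

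Among the repressors, E2F5 lay lower with both drugs in WT cells. Its WT libraries stood at 32.4, 30.1 and 33.7 CPM with DMSO, 20.4, 20.97 and 23.5 CPM with niraparib and 26.3, 22.97 and 28.3 CPM with olaparib. Both drug groups lay wholly below DMSO, and they overlapped each other. The log2 fold change with niraparib was -0.57 ± 0.077 (adjusted P = 3.05e-06), a level 1.48-fold lower and so just under the fold criterion. Without WT DMSO replicate 2 it was -0.61 and without WT niraparib replicate 3 it was -0.63, and E2F5 was then called. The olaparib value was -0.31 ± 0.077 (adjusted P = 0.0063, or 0.058 without WT olaparib replicate 2). About 18.8% of the exon bases of E2F5 lie opposite genes on the other strand, RBIS among them, and reads were counted by strand.

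E2F4, the most abundant repressor, did not pass the test against DMSO with either drug in WT cells. It stood at 57.2, 47.9 and 48.3 CPM with DMSO, 53.8, 64.2 and 51.9 CPM with niraparib and 48.7, 44.8 and 50.2 CPM with olaparib, with log2 fold changes of 0.15 (adjusted P = 0.19) and -0.087 (adjusted P = 0.55). The range with DMSO overlapped that with each drug, and the ranges of the drugs did not overlap each other. Leaving out 1 library moved the niraparib value of E2F4 to between 0.047 and 0.24, at adjusted P values from 0.015 to 0.66. Among the other settings its lowest adjusted P was 0.039. E2F6, the polycomb-linked repressor, stood at 14.1, 13.5 and 14.3 CPM with DMSO, 16.2, 16.2 and 15.3 CPM with niraparib and 13.2, 13.2 and 13.6 CPM with olaparib. The niraparib libraries of E2F6 were above the others, but the difference from DMSO, 0.19 on the log2 scale, had an adjusted P of 0.058. Among the other settings the lowest adjusted P for this difference was 0.041. The olaparib value of E2F6 was -0.064 (adjusted P = 0.64).

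The atypical repressors E2F7 and E2F8 differed in how they followed the drugs. E2F7 stood at 26.7, 28.1 and 26.7 CPM with DMSO, 42.7, 50.1 and 44.3 CPM with niraparib and 42.5, 42.3 and 41.8 CPM with olaparib in WT cells. It rose with niraparib by 0.75 ± 0.063 on the log2 scale, 1.68-fold (adjusted P = 2.91e-09), and with olaparib by 0.64 ± 0.063, 1.56-fold (adjusted P = 2.86e-07). For E2F8 the order was different, with 14.1, 14.5 and 14.7 CPM with DMSO, 15.7, 15.2 and 15.4 CPM with niraparib and 22.03, 18.4 and 20.7 CPM with olaparib. Olaparib libraries were thus the highest for E2F8, with a log2 fold change of 0.50 ± 0.079 (adjusted P = 9.48e-05, 1.41-fold), and the niraparib value was 0.095 (95% confidence interval -0.069 to 0.26, adjusted P = 0.39). Neither value passed the fold criterion.

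The DP partners, which bind DNA together with E2F1 to E2F6, differed little between treatments. TFDP1, the most abundant gene of the family, stood at 117, 129 and 130 CPM with DMSO, 147, 142 and 150 CPM with niraparib and 135, 136 and 134 CPM with olaparib in WT cells. The niraparib difference was 0.22 ± 0.049 on the log2 scale, 1.17-fold (adjusted P = 7.80e-04), and the olaparib difference 0.11 (adjusted P = 0.14). TFDP2 stood at 69.2, 71.5 and 73.0 CPM with DMSO and 78.5, 78.3 and 83.1 CPM with niraparib, a difference of 0.17 ± 0.049 (adjusted P = 0.010, or 0.057 without WT niraparib replicate 3). With olaparib TFDP2 overlapped DMSO, at 69.5 to 74.8 CPM.

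Counted together, 3 of the 10 members were called higher with niraparib in WT cells and 0 lower. Of all 22446 genes tested in that comparison, 13.8% were called and 8.1% were called higher. With olaparib 2 of 10 members, E2F2 and E2F7, were called higher and 0 lower, where 4.04% of all genes were called and 2.06% were called higher. On the adjusted P alone, 6 members differed with niraparib, beside 38.0% of all genes. The DMSO and niraparib libraries did not overlap for 8 members, beside 46.7% of all genes, and the DMSO and olaparib libraries for 6, beside 36.1%. The median log2 fold change of the 10 members was 0.18 with niraparib and 0.075 with olaparib, beside -0.025 and -0.017 over all genes tested.

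**Figure D3:**
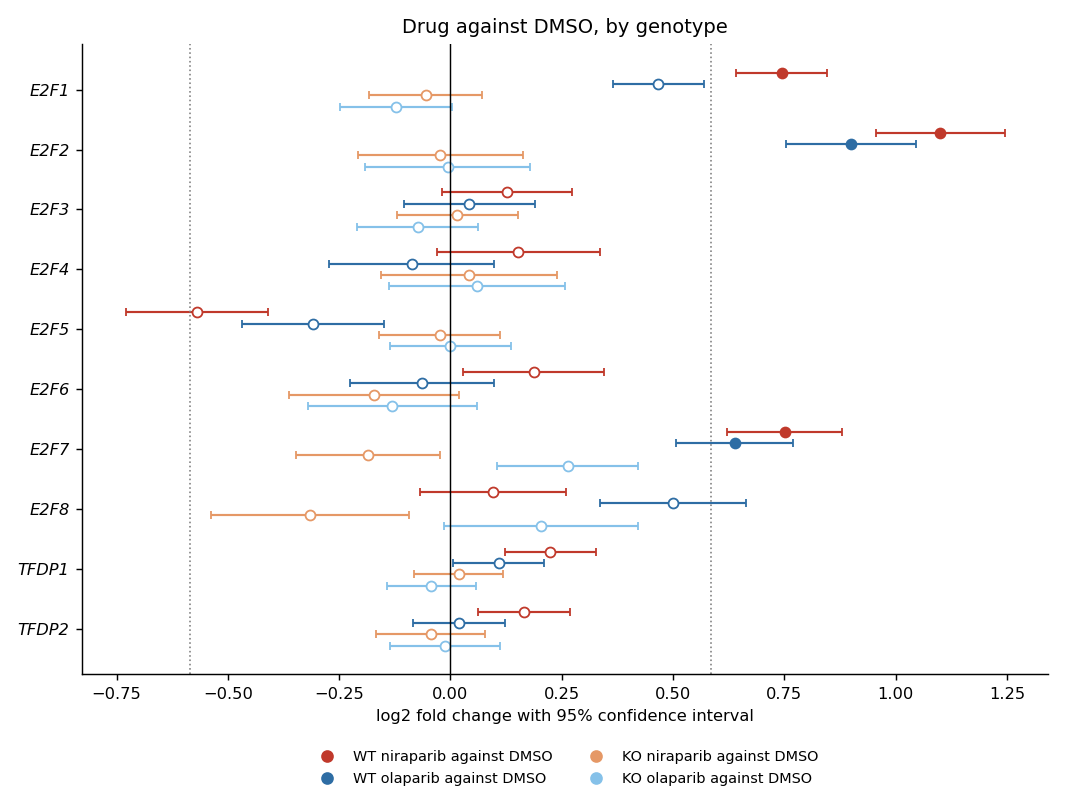
Log2 fold change against DMSO of each E2F and DP gene with niraparib and olaparib in WT and KO cells, with 95% confidence intervals, filled points for called genes and dotted lines at 1.5-fold. E2F1, E2F2 and E2F7 are called with niraparib in WT cells and E2F2 and E2F7 with olaparib, and no gene is called in KO cells.

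Both drugs were given at the same dose and for the same time, so they were also compared directly in WT cells. None of the 10 members was called between niraparib and olaparib at 1.5-fold, where 8.95% of all genes were, by edgeR or by DESeq2. At an unadjusted P below 0.05 there were 8 members. Of these, 7 also had an adjusted P below 0.05, beside 32.2% of all genes. No share of all genes was taken at the unadjusted threshold. Counts at it, here and further on, therefore have no background beside them. The libraries of the drugs did not overlap for 8 members, beside 44.0% of all genes. E2F1 was higher with niraparib than with olaparib by 0.28 on the log2 scale (adjusted P = 9.98e-05) and E2F2 by 0.20 (adjusted P = 0.026). E2F4, E2F6 and TFDP2 were higher with niraparib by 0.24, 0.25 and 0.15 (adjusted P = 0.045, 0.014 and 0.027). The opposite held for E2F8, whose log2 difference between niraparib and olaparib was -0.40 (95% confidence interval -0.57 to -0.24, adjusted P = 3.07e-04), and for E2F5 at -0.26 (adjusted P = 0.012). For E2F7 the difference was 0.11 (95% confidence interval -0.015 to 0.24, adjusted P = 0.19). Leaving out 1 library raised the adjusted P to as much as 0.14 for E2F2, 0.17 for E2F4, 0.10 for E2F5 and 0.13 for TFDP2, and to at most 0.0014 for E2F1 and 0.0052 for E2F8. The treated libraries are those of the comparisons with DMSO.

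KO cells were given the same drugs at the same dose, which asks whether the family differed with drug in a line that lacks PARP1. In the KO DMSO libraries E2F1 stood at 71.3, 67.6 and 62.8 CPM, and in the drug libraries at 61.4, 65.4 and 66.4 CPM with niraparib and 58.2, 61.9 and 65.3 CPM with olaparib, and the 3 groups overlapped. E2F2 likewise overlapped, at 22.5, 19.4 and 17.01 CPM with DMSO, 17.8, 19.9 and 20.02 CPM with niraparib and 19.4, 19.2 and 20.1 CPM with olaparib. Their log2 fold changes with niraparib were -0.056 for E2F1 (95% confidence interval -0.18 to 0.070) and -0.023 for E2F2 (-0.21 to 0.16). With olaparib they were -0.12 for E2F1 (-0.25 to 0.0040) and -0.0064 for E2F2 (-0.19 to 0.18). E2F5, which lay lower with both drugs in WT cells, stood at 29.6 to 33.4 CPM in all 9 KO libraries.

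The atypical E2F7 and E2F8 had the largest differences between treatments in KO cells. E2F7 stood at 31.0, 28.1 and 24.4 CPM with DMSO, 24.7, 23.04 and 25.4 CPM with niraparib and 33.7, 34.1 and 32.4 CPM with olaparib. With olaparib E2F7 was above DMSO by 0.26 ± 0.076 on the log2 scale (adjusted P = 0.035, or 0.19 without KO DMSO replicate 3), and its libraries lay above all DMSO libraries. With niraparib the value was -0.19 (adjusted P = 0.47). E2F8 stood at 14.4, 12.5 and 14.5 CPM with DMSO, 11.4, 12.3 and 9.59 CPM with niraparib and 18.1, 15.5 and 14.1 CPM with olaparib, with log2 fold changes of -0.32 (adjusted P = 0.32) and 0.20 (adjusted P = 0.28). The niraparib libraries of E2F8 lay just below all DMSO libraries, and the olaparib libraries overlapped DMSO. Between niraparib and olaparib the difference was -0.45 ± 0.077 for E2F7 (adjusted P = 6.97e-04) and -0.52 ± 0.11 for E2F8 (adjusted P = 0.0030), and the libraries of the 2 drugs did not overlap for either gene. For E2F8 this reached the fold criterion without KO niraparib replicate 2, at -0.60, or without KO olaparib replicate 3, at -0.59.

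By edgeR and by DESeq2, 0 of the 10 members were called with niraparib in KO cells, where 0.0136% of all 22037 genes were called by edgeR, and 2 members had an unadjusted P below 0.05. With olaparib 0 were called, where 0.803% of all genes were, and 1 member had an unadjusted P below 0.05. Between the drugs 0 were called, where 1.07% of all genes were, and 2 members had an unadjusted P below 0.05. On the adjusted P alone, 0 members differed with niraparib, 1 with olaparib and 2 between the drugs, beside 0.109%, 8.29% and 10.0% of all genes. The remaining members, E2F3, E2F4, E2F6, TFDP1 and TFDP2, had log2 fold changes against DMSO between -0.17 and 0.060 in KO cells.

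Without drug, the KO line was compared with the WT line. None of the members was called by edgeR or DESeq2, where 0.146% of all 24675 genes were called, and 3 had an unadjusted P below 0.05. Differences in 2 members passed on the adjusted P alone, beside 1.39% of all genes. E2F1 and E2F2 were higher in KO than in WT cells with DMSO, by 0.23 ± 0.056 (adjusted P = 0.023) and 0.32 ± 0.083 (adjusted P = 0.041) on the log2 scale, and their libraries did not overlap. Without KO DMSO replicate 1 the adjusted P was 0.15 for E2F1 and 0.29 for E2F2. The other members had log2 differences between -0.12 for E2F4 and 0.13 for E2F6, with adjusted P values of 0.23 or more.

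Whether the drug response of a member differed between the lines was tested as the response in KO cells minus that in WT cells. With niraparib this difference was -0.81 ± 0.078 for E2F1 (adjusted P = 5.05e-10), -1.13 ± 0.11 for E2F2 (adjusted P = 1.40e-09) and -0.94 ± 0.10 for E2F7 (adjusted P = 4.17e-09), and all 3 were called. No member was called in the other direction. Of all 24675 genes 8.88% were called and 5.2% were called lower. On the adjusted P alone 8 members differed, beside 22.9% of all genes. E2F5 had the opposite sign at 0.54 ± 0.10 (adjusted P = 9.75e-05), under the fold criterion, and reached it at 0.59 without KO DMSO replicate 3. E2F6, E2F8, TFDP1 and TFDP2 had differences of -0.37, -0.42, -0.21 and -0.22 at adjusted P values of 0.020, 0.020, 0.020 and 0.037, which rose to at most 0.082, 0.095, 0.078 and 0.13 when 1 library was left out. For E2F3 and E2F4 the differences were -0.12 for each, with 95% confidence intervals of -0.31 to 0.076 and -0.44 to 0.20.

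With olaparib the same difference was called for E2F2 alone among the 10 members, at -0.90 ± 0.12 (adjusted P = 7.11e-06), where 0.657% of all genes were called and 0.381% were called lower. There were 3 members that differed on the adjusted P alone, beside 2.27% of all genes. E2F1 followed at -0.58 ± 0.079 (adjusted P = 1.53e-05), within rounding of the fold criterion, which it passed in 11 of 18 fits that left out 1 library. E2F7 stood at -0.37 (adjusted P = 0.040, or 0.14 without KO DMSO replicate 1). The median over the members was -0.29 with niraparib and -0.13 with olaparib, beside 0.033 and 0.012 over all genes tested.

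**Figure D4:**
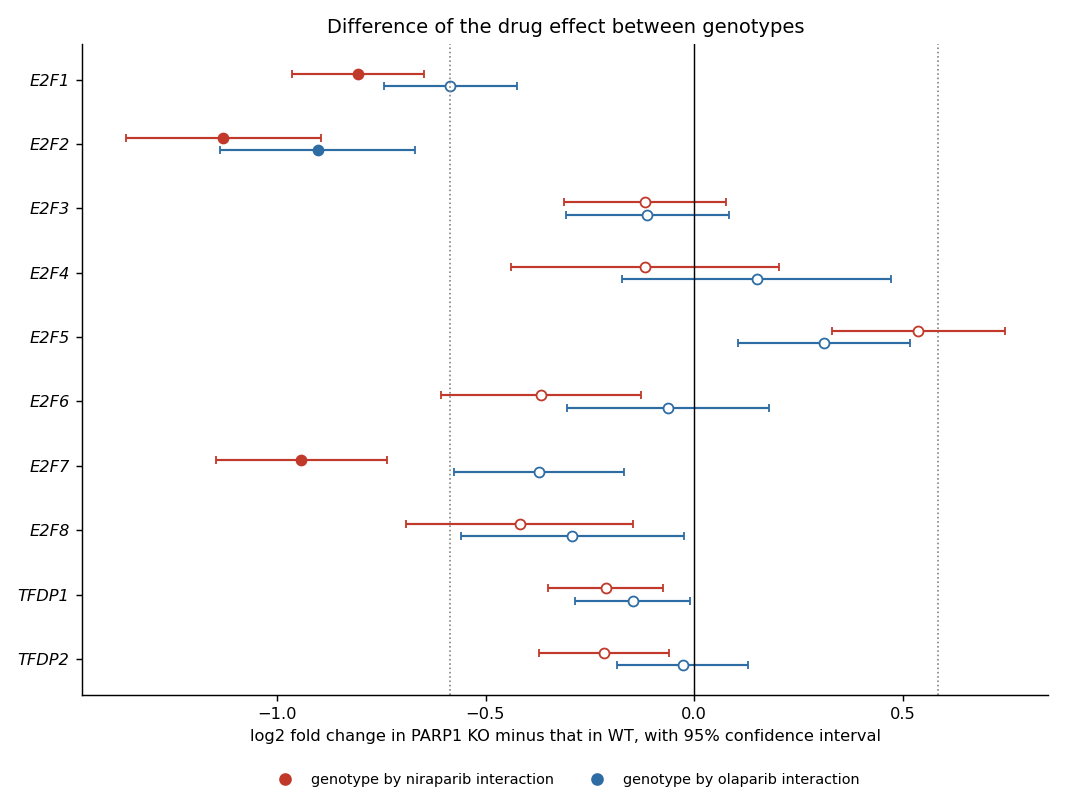
Drug response in KO cells minus that in WT cells (log2 scale) of each E2F and DP gene for niraparib and olaparib, with 95% confidence intervals, filled points for called genes and dotted lines at 1.5-fold. E2F1, E2F2 and E2F7 lie near -0.81, -1.13 and -0.94 with niraparib, and E2F5 lies on the other side of 0.

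Genes around the family were read from lists of the same pathway. The G1/S list held 49 E2F target genes of DNA replication and S-phase entry, all tested. With niraparib in WT cells 16 of them were called higher and 1 lower, with a median log2 fold change of 0.47. Of all genes 8.1% were called higher and 5.72% lower in that comparison, and these shares stand beside the niraparib counts of every list that follows. Among the genes called higher were CLSPN, a replication checkpoint adaptor, at 19.1 ± 0.426 CPM with DMSO and 40.5 ± 2.32 CPM with niraparib (SD, n = 3; log2 fold change 1.09, adjusted P = 1.62e-10), and MCM10, a replication initiation factor, at 31.1 ± 2.85 and 63.2 ± 1.06 CPM (1.02, adjusted P = 1.75e-11). The DNA polymerase subunit POLA1 went from 50.6 ± 1.72 to 97.4 ± 2.61 CPM (0.94, adjusted P = 4.65e-12). The cyclins that drive S-phase entry, CCNE1 and CCNE2, rose with niraparib by 0.82 (adjusted P = 8.57e-05) and 0.88 (adjusted P = 6.31e-11). They parted with olaparib in WT cells, where CCNE1 stood at -0.016 (adjusted P = 0.96) and CCNE2 at 0.54 (adjusted P = 1.02e-06), and neither was called. The gene called lower was CCNA2, the cyclin of S phase and G2, at 160 ± 0.971 CPM with DMSO and 47.1 ± 1.82 CPM with niraparib (-1.77, adjusted P = 2.77e-16).

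With olaparib in WT cells 3 genes of the G1/S list were called higher and 0 lower, beside 2.06% and 1.98% of all genes, with a median of 0.22. These were CDT1 (0.95), MCM10 (0.71) and ORC1 (0.90), which all load or activate the replicative helicase at origins, and CDT1 and ORC1 were chosen for naming after their values were seen. In KO cells 0 of the 49 were called with either drug by edgeR or DESeq2. Of all genes only 0.0136% were called with niraparib and 0.803% with olaparib there by edgeR, so few calls would fall in any list of this size. The median of the list was -0.084 with each drug. At an unadjusted P below 0.05 there were 17 genes with niraparib and 18 with olaparib, without a share of all genes to set beside them. With olaparib 11 were lower and 1 higher on the adjusted P alone, and 1 was lower with niraparib, beside 8.29% and 0.109% of all genes in either direction. The helicase subunit genes MCM6 and MCM5 were the lowest with olaparib in KO cells, at -0.48 (adjusted P = 4.20e-05) and -0.42 (adjusted P = 8.63e-04), and the gene that was higher was CDT1, at 0.26 (adjusted P = 0.011). In the test of the difference between the lines, 20 were called lower and 1 higher with niraparib, and 5 lower with olaparib, beside 5.2% and 0.381% of all genes called lower. Without drug, 0 were called between KO and WT cells by edgeR or DESeq2, where 0.146% of all genes were called by edgeR. There were 36 at an unadjusted P below 0.05, and the median was 0.18. On the adjusted P alone 14 of the 49 were higher in KO cells, beside 1.39% of all genes in either direction.

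The G2/M list of 35 genes, among them targets of FOXM1 and of the MuvB complexes that E2F and DP proteins share, ran the other way. With niraparib in WT cells 28 were called lower and 0 higher, and all 35 were lower on the adjusted P alone, with a median of -1.07. KIF20A, a kinesin of cytokinesis, stood at 190 ± 9.75 CPM with DMSO and 23.9 ± 2.40 CPM with niraparib (-3.00, adjusted P = 9.17e-18), and the mitotic kinase gene PLK1 at 215 ± 7.27 and 39.4 ± 4.83 CPM (-2.46, adjusted P = 1.40e-14). The mitotic cyclin CCNB1 and the spindle checkpoint kinase BUB1 fell by 2.19 and 1.89 on the log2 scale. FOXM1, a transcription factor of G2 and mitosis, was lower by a smaller amount, -0.40 (adjusted P = 3.76e-07), and was not called. With olaparib 5 were called lower, beside 1.98% of all genes, with a median of -0.27. In KO cells 0 were called with either drug by edgeR or DESeq2, beside 0.0136% of all genes with niraparib and 0.803% with olaparib by edgeR. In those cells 11 had an unadjusted P below 0.05 for niraparib and 10 for olaparib. There, 2 of these genes were lower with olaparib on the adjusted P alone, CDC20 at -0.19 and CENPE at -0.24, beside 8.29% of all genes in either direction, and 0 differed with niraparib.

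**Figure D5:**
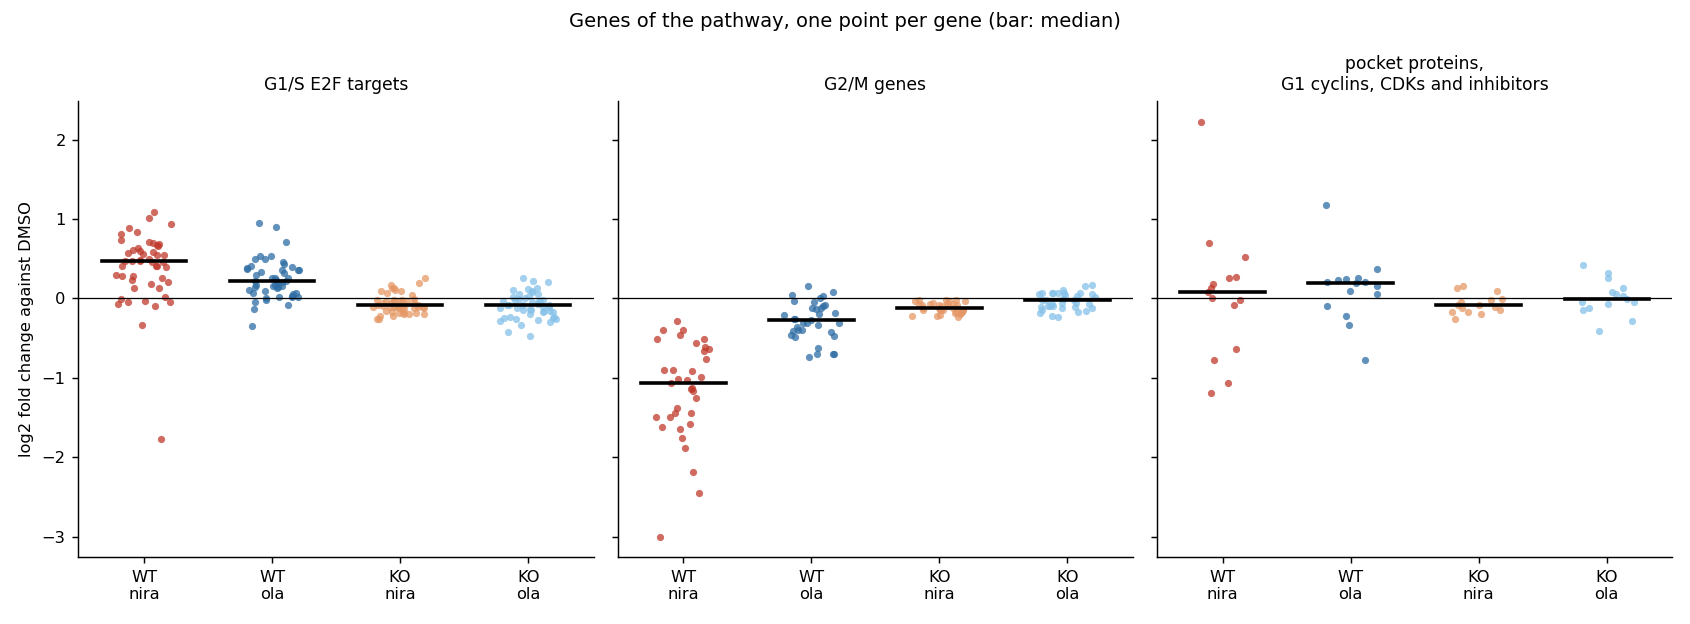
Log2 fold change against DMSO of the genes of 3 lists in the 4 drug comparisons, 1 point per gene for the 49, 35 and 15 genes whose mean reached 1 CPM, with a bar at the median of the points. In WT cells with niraparib most G1/S genes lie above 0 and all G2/M genes below it, and in KO cells every point lies between -0.48 and 0.42.

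Of 17 genes for the pocket proteins that bind E2Fs, G1 cyclins, their kinases and inhibitors, 2 were called higher and 4 lower with niraparib in WT cells. CDKN1A, the inhibitor p21, rose from 59.9 ± 8.07 CPM with DMSO to 282 ± 10.8 CPM with niraparib (2.23, adjusted P = 3.13e-12) and to 135 ± 2.23 CPM with olaparib (1.18, adjusted P = 4.52e-08). In KO cells it stood at 63.8 ± 3.40, 70.9 ± 13.4 and 76.1 ± 7.47 CPM with DMSO, niraparib and olaparib. CCND1, the cyclin that with CDK4 and CDK6 phosphorylates RB1, fell with niraparib by 1.06 (adjusted P = 1.89e-11) and with olaparib by 0.77 (adjusted P = 2.27e-08). The kinase inhibitors CDKN2C and CDKN2D fell with niraparib by 1.19 and 0.77. The pocket proteins differed among themselves, with RB1 at 81.3 ± 4.87 CPM with DMSO and 82.0 ± 2.86 CPM with niraparib (0.011, adjusted P = 0.90), RBL1 called higher at 0.70 (adjusted P = 1.60e-05) and RBL2, the partner of E2F4 in resting cells, called lower at -0.63 (adjusted P = 1.29e-09). No gene of this list was called in KO cells with either drug by edgeR or DESeq2, and 6 had an unadjusted P below 0.05 with each. Of all genes 0.0136% were called there with niraparib and 0.803% with olaparib by edgeR. With olaparib in KO cells 2 were higher and 2 lower on the adjusted P alone, beside 8.29% of all genes in either direction, with CCND1 at -0.40 (adjusted P = 9.13e-04), RBL1 at -0.28 (0.025), CDKN2D at 0.42 (0.023) and the inhibitor gene CDKN1B at 0.32 (0.0037), and none differed with niraparib.

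Smaller lists stood for the complexes and target groups of single members, to be read against the 8.1% of all genes called higher with niraparib and 2.06% with olaparib in WT cells. Of the 5 MuvB core genes and MYBL2, 2 were called higher with niraparib in WT cells, MYBL2 (0.65, adjusted P = 2.62e-10) and LIN54 (0.65, adjusted P = 3.11e-09), and 0 with olaparib by edgeR or DESeq2, with 4 at an unadjusted P below 0.05. LIN54 stood at 0.56 with olaparib (adjusted P = 2.58e-07) and was called, at 0.59, without WT DMSO replicate 2. Of 10 partners of E2F6 in the polycomb complex PRC1.6, 3 were called higher with niraparib, MGA (0.85), MAX (0.62) and RING1 (0.61), and 0 with olaparib by edgeR or DESeq2, with 7 at an unadjusted P below 0.05. RING1 was not called without WT niraparib replicate 2, at 0.57. Of 6 germline genes known to be silenced by E2F6, 3 were tested, and SMC1B, at 0.567 CPM on average over the libraries, was called higher with niraparib (1.53, adjusted P = 6.26e-04) and olaparib (1.11, adjusted P = 0.023). For olaparib it was not called without WT DMSO replicate 3, WT olaparib replicate 1 or WT olaparib replicate 3. Of 8 apoptosis genes with known E2F1 sites, PMAIP1 and BBC3, both BH3-only death activators, were called higher with niraparib (1.84 and 0.78) and olaparib (1.57 and 1.06) in WT cells. In KO cells, where 0.803% of all genes were called with olaparib, PMAIP1 was called higher with it, at 0.76 (adjusted P = 8.40e-04). BBC3 stood at 0.57 with olaparib in KO cells (adjusted P = 0.0090), just under the fold criterion. It was called lower with niraparib than with olaparib there, at -0.73 (adjusted P = 0.0012), where 1.07% of all genes were called. TFDP3, a further DP gene, had too few counts to be tested.

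For the 3 members called with niraparib in WT cells, the genes with the most similar pattern were sought among 11019 genes, by Pearson correlation of log2 CPM over the 18 libraries. E2F1 was most like C19orf48P (r = 0.974), MYBL2 (0.972) and SURF2 (0.966). For E2F2 these were E2F1 (0.962), DTL (0.959) and PKMYT1 (0.958), and for E2F7 they were DCP1A (0.968), RAB3IL1 (0.967) and PHLDA3 (0.966). The 18 points include the 6 groups, so these values largely describe differences between group means, and they are given as a description.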

How the data were processed

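Poly(A) RNA of 18 libraries was sequenced with a stranded kit. Per the study's methods the authors trimmed reads with Trimmomatic, aligned them to hg38 with STAR, marked PCR duplicates with Picard and assigned them to genes with featureCounts. Per the file headers, primary alignments were counted by strand over exons of the Ensembl annotation. The authors deposited raw counts for 58884 gene identifiers per library, of which 58472 had a symbol. The file headers name a deduplicated alignment, and the effect of duplicate removal on the counts cannot be read from them.

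Here edgeR 4.0.16 in R 4.3.3 was used with TMM scaling and a robust quasi-likelihood fit (glmQLFit, glmQLFTest). Genes with a summed count of 10 or less in the fitted libraries were left out. WT and KO cells were fitted apart (9 libraries each), and KO against WT and the differences in drug response were fitted on all 18. P values were adjusted over all genes tested with the Benjamini-Hochberg method, and the call rule was an adjusted P below 0.05 together with more than 1.5-fold. Standard errors are the log2 fold change over the square root of F. The biological coefficient of variation was 7.04% in WT and 7.42% in KO libraries, and library totals of 28890837 to 52251288 counts set the counting precision. CPM of members and lists are TMM scaled over the 18 libraries, marker sums use library totals, and TPM divides by merged exon length. The code was tested on simulated data before use.

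The members and lists were chosen with earlier results of these data known. All 10 members are named. Of the lists, RB1, RBL1, RBL2, CCND1, CCNE1, CCNE2, CDKN1A, MYBL2 and FOXM1 are named for their place in the pathway, with up to 4 genes per list called with niraparib in WT cells with the largest log2 fold change, with a mean of 1 CPM or more and no overlap between groups. SMC1B, CDT1, ORC1, MCM5, MCM6, CDKN1B, CDC20 and CENPE fall outside this rule and were named after their values were seen. Similar genes were sought at a mean of at least 5 CPM. Alternatives were RLE scaling, filterByExpr, no filter on low counts, a replicate block, DESeq2 1.42.0, a fit on all 18 libraries, other thresholds and leaving out each library. Those for lists and named list genes were chosen after seeing the data. No 2 libraries of the same group agreed within sampling noise. Promoter sequences came from RefSeq on GRCh38.p14.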

Additional observations from a re-analysis of the deposited data

Results flagged for a closer look

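The response to niraparib differed between the lines for 3 members in the direct test of the difference (edgeR, n = 3 per group). KO minus WT on the log2 scale was -0.81 for E2F1, -1.13 for E2F2 and -0.94 for E2F7. For olaparib it was called for E2F2 alone among the members, at -0.90. The WT niraparib libraries of E2F1, E2F2 and E2F7 all lay above every KO library of the same gene. Genotype and cell line cannot be told apart, since each genotype was 1 line.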

How the results depend on the processing

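The counts of called members were 151 times within 1.5 times the reported count and 26 times outside it. On the adjusted P alone the counts were 6 with niraparib and 5 with olaparib in WT cells (where 4270 of 22446 genes passed with olaparib), 7 between the drugs in WT cells, 1 with olaparib and 2 between the drugs in KO cells, 2 between the lines with DMSO, and 8 and 3 for the differences in niraparib and olaparib response. At a log2 fold change above 1.5, the criterion in the study's methods text, 0 members were called in WT cells with niraparib or olaparib or for either difference in response. RLE scaling, filterByExpr, no filter, DESeq2 and the fit on all 18 libraries called the same number of members as reported in every comparison. Leaving out 1 library gave 3 to 4 members for niraparib in WT cells and for the difference in niraparib response, 0 to 1 between the drugs in KO cells and 1 to 2 for the difference in olaparib response.

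Replicate numbers did not mark paired samples. The deviations of same-numbered libraries of 1 genotype correlated between -0.61 and 0.64 over 18 pairs, 6 of them above 0.1. With the replicate number as a block, 2 members, E2F2 and E2F1, were called for the difference in olaparib response, with E2F1 at -0.59, and no other count of members changed.

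Single values that changed sign were near 0 and never called. E2F5 with olaparib in KO cells was 2.5e-04 with filterByExpr, 2.2e-04 in the fit on all 18 libraries and 0.0013 with the block, and CCNE1 with olaparib in WT cells was 0.0060 with the block. On leaving out 1 library the log2 values spanned, in WT cells with olaparib, -0.024 to 0.11 for E2F3, -0.013 to 0.046 for TFDP2 and -0.16 to 0.16 for CCNE1, and with niraparib -0.036 to 0.044 for RB1. In KO cells with niraparib they spanned -0.12 to 0.084 for E2F2, -0.033 to 0.039 for E2F3, -0.036 to 0.088 for E2F4, -0.063 to 0.021 for E2F5 and -3.7e-04 to 0.024 for TFDP1. With olaparib in KO cells they spanned -0.092 to 0.10 for E2F2, -0.056 to 0.12 for E2F4, -0.028 to 0.060 for E2F5 and -0.065 to 0.029 for TFDP2. Between the drugs in KO cells they spanned -0.043 to 0.039 for E2F2, -0.088 to 0.097 for E2F4, -0.096 to 0.027 for E2F6 and -0.065 to 0.021 for TFDP2. Between the lines with DMSO they spanned -0.086 to 0.0022 for E2F5 and -0.051 to 0.12 for E2F7, and for the difference in olaparib response -0.079 to 0.011 for TFDP2.

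Over the alternatives run, 13 to 18 G1/S genes were called higher and 27 to 29 G2/M genes lower with niraparib in WT cells. For the difference in niraparib response 15 to 21 G1/S genes were called lower and 26 to 28 G2/M genes higher. Of the 7 members not called with niraparib in WT cells, E2F5, TFDP1 and TFDP2 passed the adjusted P and missed 1.5-fold. The other 4 passed neither in the reported fit. E2F4 had an adjusted P as low as 0.015 on leaving out 1 library, and E2F6 as low as 0.041 in the other settings. Protein levels and cell cycle phase were not measured in these libraries.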
